A study of Mus musculus with 15 samples.

Results

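The genes examined here encode mitochondrial respiratory complexes II to V, in cultured white adipocytes kept at a cool temperature. They were chosen by symbol from the table of gene counts: Sdha to Sdhd, every symbol that opens with Uqcr or Atp5, Cox4 to Cox8 and Cox10 to Cox19, with Cyc1 and Cycs, and with Cox8b left out. This rule found 55 of the 18804 genes in the table. By role they were 4 genes of complex II, 9 of complex III, the gene of cytochrome c, 15 subunit genes of complex IV, 7 genes for building complex IV and 15 genes of complex V. The other 4 were matched by name only, since Cox7a2l encodes a factor of respiratory supercomplexes, Cox4nb (now Emc8) a subunit of the endoplasmic reticulum membrane protein complex, and Atp5s and Atp5sl (now Dmac2l and Dmac2) proteins that are not subunits of the enzyme.

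All adipocytes were wild-type cells of C57BL/6J mice, differentiated in culture from mesenchymal stem cells that the study isolated from ears. Every group received the same adipogenic mixture of methylisobutylxanthine, dexamethasone, insulin and troglitazone, and every group was harvested on day 16 of differentiation. Cells of the day 0 group never left 37°C. Those of the day 1 group went to 31°C on day 15 and those of the day 12 group on day 4, so the length of the exposure and the stage at which it began cannot be told apart. There were 5 libraries per group, and the labels do not say whether these came from separate mice or dishes, so p-values measure the spread between these libraries only.

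The respiratory chain passes electrons from nutrients to oxygen and stores the energy as a proton gradient across the inner mitochondrial membrane. Complex II (succinate dehydrogenase) feeds electrons from the citric acid cycle into ubiquinone, complex III passes them to the small carrier cytochrome c, and complex IV (cytochrome c oxidase) hands them to oxygen, while complex V (ATP synthase) uses the returning protons to make ATP. Complexes III to V are assembled from nuclear and mitochondrial gene products, and several complex IV subunits exist as a widely expressed form and a form restricted to tissues such as muscle, lung or testis. Genes encoded in mitochondrial DNA were not analysed here.

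Total counts per library ranged from 64648178 to 133270973. All 8 adipocyte markers examined had counts in every library. After 1 day 4 of them had risen and 2 had fallen, and after 12 days 4 were above and 3 below day 0 by the test. The fatty acid carrier Fabp4 went from a mean of 828 ± 66.0 CPM (counts scaled to a common library size by TMM, SD, n = 5) at day 0 to 1617 ± 75.5 CPM at day 12, and the adipokine Adipoq from 1095 ± 41.4 to 464 ± 9.71 CPM. Among 6 brown adipocyte genes, Ucp1 and Cidea reached at most 4 and 16 counts in any library, and the 2 tested, Dio2 and Ppargc1a, were both lower at day 12. Almost all of the sum of these 6 was Dio2, and it lay between 119 and 218 CPM at day 0, 170 and 239 CPM at day 1 and 68.5 and 83.6 CPM at day 12. The summed level of 5 genes of dividing cells rose from between 48.6 and 59.3 CPM at day 0 to between 58.3 and 68.8 CPM at day 1 and between 148 and 179 CPM at day 12. The sum of 6 progenitor and fibroblast genes stepped down without overlap, from between 3607 and 3982 CPM to between 3210 and 3447 CPM and between 2763 and 3109 CPM, with 3 of the 4 tested lower at day 12 and Pdgfra higher. Of 4 mesothelial and epithelial genes tested, Msln was higher at day 12 (means of 0.628 and 29.3 CPM), Krt8 was lower and Krt19 and Lrrn4 did not pass. These genes moved with the groups, and their part in the results below was not tested. In such bulk RNA, a smaller share of a cell type and less RNA per cell cannot be told apart.

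The promoters shown here belong to pairs of complex IV genes that moved in opposite directions, and to Atp5l and Cycs, which were among the largest rises. Of the 55 genes, 41 had a promoter window in RefSeq (build GRCm38.p6). Each line gives the 250 bases before the annotated start of transcription, read 5′ to 3′ on the strand of the gene. Capitals mark exact matches on either strand to motifs of factors known for respiratory genes: NRF1 (GCGCATGCG), GABP, also called NRF2 (CCGGAAG), YY1 (AAGATGGC), ERR (TCAAGGTCA) and Sp1 (GGGGCGGGG).
Cox6b2, chr7:4753095-4753344, minus strand: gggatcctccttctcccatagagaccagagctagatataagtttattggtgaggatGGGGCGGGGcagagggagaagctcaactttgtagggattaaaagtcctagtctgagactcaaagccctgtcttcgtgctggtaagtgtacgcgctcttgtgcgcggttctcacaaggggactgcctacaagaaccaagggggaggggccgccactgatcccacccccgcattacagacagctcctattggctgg
Cox6b1, chr7:30626115-30626364, minus strand: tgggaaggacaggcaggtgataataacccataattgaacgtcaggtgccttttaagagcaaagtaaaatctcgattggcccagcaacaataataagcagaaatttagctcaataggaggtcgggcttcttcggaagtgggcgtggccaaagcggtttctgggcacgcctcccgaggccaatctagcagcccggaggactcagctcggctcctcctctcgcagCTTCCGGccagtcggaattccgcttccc
Cox7a1, chr7:30183921-30184170, plus strand: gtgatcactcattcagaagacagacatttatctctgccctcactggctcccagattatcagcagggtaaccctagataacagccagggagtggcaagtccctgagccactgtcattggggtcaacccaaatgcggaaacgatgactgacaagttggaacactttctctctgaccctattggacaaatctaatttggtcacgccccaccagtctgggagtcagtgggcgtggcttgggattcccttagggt
Cox7a2, chr9:79759854-79760103, minus strand: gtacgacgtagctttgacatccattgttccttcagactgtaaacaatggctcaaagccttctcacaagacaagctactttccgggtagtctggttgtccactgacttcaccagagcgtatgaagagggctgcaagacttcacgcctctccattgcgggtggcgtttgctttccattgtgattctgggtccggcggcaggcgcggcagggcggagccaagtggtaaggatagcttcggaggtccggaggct
Atp5l, chr9:44920743-44920992, minus strand: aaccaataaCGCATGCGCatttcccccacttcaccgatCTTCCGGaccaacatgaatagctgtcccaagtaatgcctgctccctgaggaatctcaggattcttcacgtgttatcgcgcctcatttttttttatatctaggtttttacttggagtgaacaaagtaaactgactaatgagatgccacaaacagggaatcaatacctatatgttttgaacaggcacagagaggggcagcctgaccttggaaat
Cycs, chr6:50566570-50566819, minus strand: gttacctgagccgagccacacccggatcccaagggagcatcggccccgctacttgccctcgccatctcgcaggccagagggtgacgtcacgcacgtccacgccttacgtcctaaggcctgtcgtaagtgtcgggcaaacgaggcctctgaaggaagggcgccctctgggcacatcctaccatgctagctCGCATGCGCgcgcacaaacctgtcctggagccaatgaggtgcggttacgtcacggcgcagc

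The GABP letters were found in the windows of 11 of the 41 genes (26.8%) and the NRF1 letters in 5 (12.2%), compared with 7.83% and 1.64% of all 27025 genes with a window. For Sp1 the share was 17.1% against 11.8%, for YY1 4.88% against 1.83% and for ERR 2.44% against 0.422%. At least 1 of the motifs was found for 22 of the 41 genes, or 53.7%, and for 20.9% of all genes. The GABP match of Cox6b1 lay 28 to 22 bases before its start, whereas the window of Cox6b2 held an Sp1 match, 194 to 186 bases before the start, and no other. Atp5l held both an NRF1 and a GABP match, and Cycs an NRF1 match 61 to 53 bases before its start. No motif was found in the windows of Cox7a1 and Cox7a2. A match is a description of the letters in these windows only.

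After 1 day at 31°C most of these genes were modestly higher. Of the 53 that had enough counts to be tested, 43 rose and 5 fell at an adjusted p under 0.05 (edgeR quasi-likelihood test, Benjamini-Hochberg), and the other 5 did not pass. Among all 14293 genes tested, 35.3% rose and 36.2% fell by the same rule. The count of 43 was 32 under scaling by the reference genes Hprt and Tbp alone. The median log2 fold change of the 53 genes was 0.27, a 1.21-fold rise, while that of all genes was -0.01. The changes were small: 2 genes rose and 3 fell by more than 1.5-fold with an adjusted p under 0.05, against 7.71% and 13.4% of all genes. The count of 2 rests on genes close to the limit, and it was 1 without day 0 replicate 2 or day 1 replicate 1, 4 without day 0 replicate 5 or day 1 replicate 3, and 5 without day 0 replicate 4.

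After 12 days most of these genes were still above day 0. Of the 43 genes that rose at day 1, 35 were also higher at day 12, while Cox4i2, Cox6b2 and Cox17 had fallen further by the test of day 12 against day 1. In the comparison of day 12 with day 0, 36 of the 53 rose and 8 fell, against 39.2% and 37.4% of all genes tested. By more than 1.5-fold 4 rose and 6 fell, against 13% and 16.2%. The median log2 fold change was 0.18, a 1.13-fold rise, with 0.01 for all genes. The size of the day 12 changes depends on how libraries are scaled: under scaling by total counts the median of all genes itself moved to 0.21, and under scaling by 4 of the reference genes of the study (Hprt, Tbp, Gapdh and B2m) to 0.85. Relative to the median of all genes, the median of the 53 genes lay between 0.15 and 0.21 above at day 12 and between 0.27 and 0.30 above at day 1 under every alternative tried. Complex I, the entry point for NADH, was taken as the 42 genes whose symbols open with Ndufa, Ndufb, Ndufc, Ndufs or Ndufv. These were not sorted by role, so the set can hold genes that are not subunits. Its medians were 0.24 at day 1 and 0.18 at day 12.

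**Figure D1:**
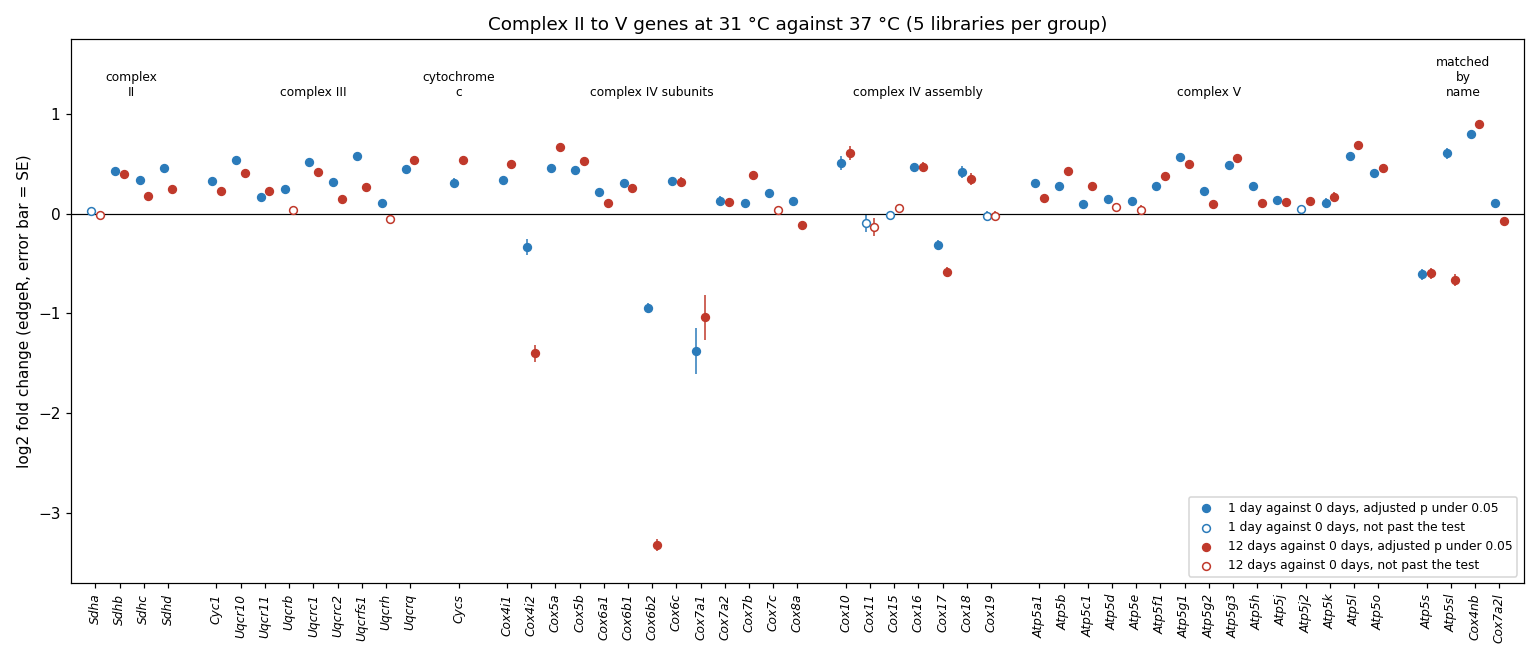
The log2 fold change of each of the 53 genes tested (vertical axis, error bar = SE) is plotted by complex for 1 day (blue) and 12 days (red) at 31°C against 37°C, with filled points for an adjusted p under 0.05. Most points lie between 0 and 0.7, while Cox4i2, Cox6b2 and Cox7a1 lie below 0 at both days, down to -3.32 for Cox6b2 at day 12 (TMM scaling).

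Summed over its genes, complex III was 1.28 times its day 0 level at day 1, against 1.22 for complex V, 1.18 for complex IV subunits and 1.17 for complex II. Its level was 647 ± 18.5 CPM at day 0, 825 ± 16.1 CPM at day 1 and 757 ± 14.5 CPM at day 12 (SD, n = 5), with no overlap between the 3 groups. Complex II followed the same course, at 504 ± 8.26, 589 ± 5.26 and 549 ± 13.1 CPM. Complex V, the most abundant of complexes II to V by this sum, was at 2276 ± 41.5 CPM at day 0, and its libraries spanned 2708 to 2828 CPM at day 1 and 2745 to 2874 CPM at day 12, so that the later groups overlapped. Complex IV subunits were at 1090 ± 32.9, 1282 ± 27.4 and 1267 ± 25.0 CPM. The summed genes of complex I were at 2438 ± 40.0 CPM at day 0, 2601 ± 60.3 CPM at day 1 and 2330 ± 34.2 CPM at day 12. These sums are descriptions with no test, and they give most weight to abundant genes.

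**Figure D2:**
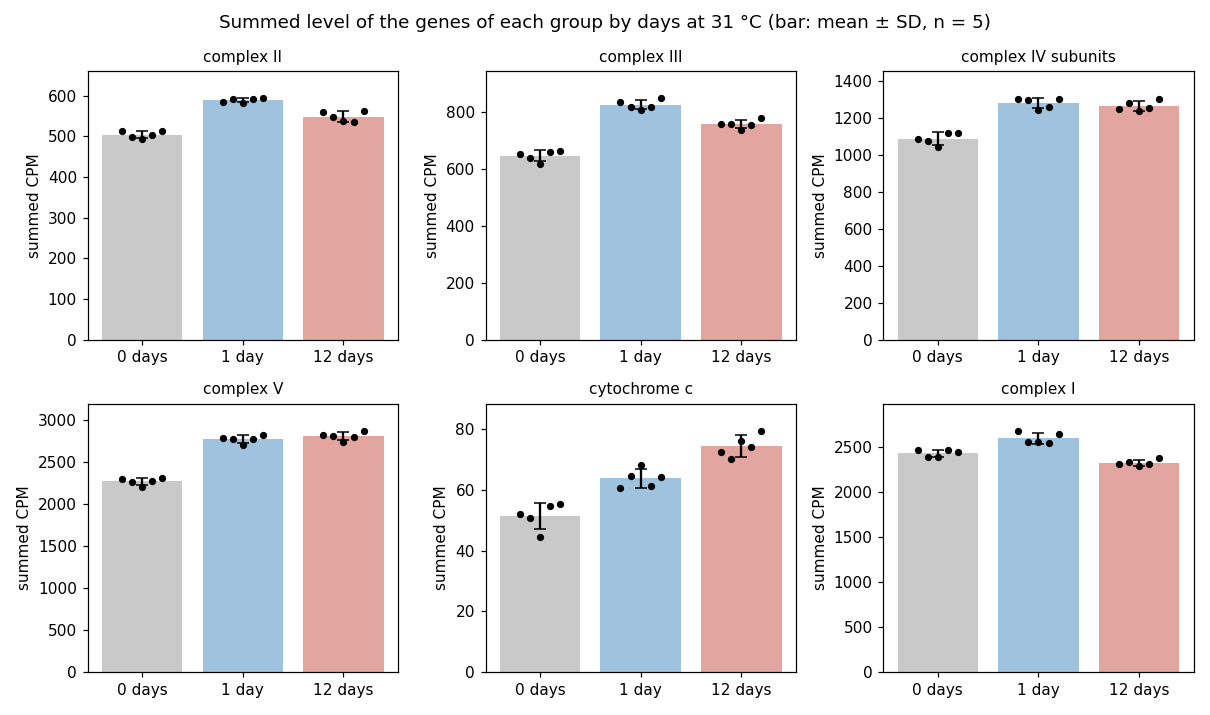
Summed TMM-scaled CPM (vertical axis) is plotted by days at 31°C for complexes II, III, IV (subunits) and V, cytochrome c and complex I (taken by symbol). Bars give the mean ± SD of 5 libraries, and each point is a library. Complexes II and III peak at day 1, at 589 and 825 CPM, while cytochrome c is highest at day 12, at 74.3 CPM.

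Within complex II, 3 of the 4 genes rose at both days, against 35.3% of all genes tested at day 1 and 39.2% at day 12. Sdha, the catalytic flavoprotein, did not pass the test at either day. Sdha was at 257, 260, 260, 258 and 264 CPM in the day 0 libraries, 264, 268, 264, 265 and 266 CPM at day 1, and 258, 264, 253, 254 and 260 CPM at day 12. Its log2 fold changes were 0.03 ± 0.02 (SE, adjusted p = 0.21) and -0.01 ± 0.02 (adjusted p = 0.64), and the libraries of all groups lay between 253 and 268 CPM. Sdhb, the iron-sulfur subunit that passes electrons on, rose by 0.43 ± 0.03 at day 1 and 0.40 ± 0.03 at day 12 (log2, adjusted p = 4.3e-12 and 1.1e-11). Its mean level was 53.9 ± 1.97 CPM at day 0, 72.5 ± 1.70 CPM at day 1 and 70.9 ± 1.38 CPM at day 12.

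Sdhc and Sdhd encode the membrane anchors that hold the ubiquinone site. Sdhd was at 102, 92.6, 92.9, 96.1 and 97.4 CPM at day 0, 129, 132, 132, 133 and 134 CPM at day 1, and 117, 112, 109, 111 and 119 CPM at day 12. All day 1 libraries were above all day 12 libraries, which in turn were above all day 0 libraries. The log2 fold change of Sdhd was 0.46 ± 0.03 at day 1 and 0.24 ± 0.03 at day 12, and that of Sdhc 0.34 ± 0.04 and 0.18 ± 0.04. Day 12 was below day 1 for both by the test, by -0.21 for Sdhd (adjusted p = 1.1e-06) and by -0.16 for Sdhc (adjusted p = 0.00037). With total counts these 2 differences became -0.04 and 0.01, because the median of all genes in that comparison moved from 0.01 to 0.18.

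All 9 genes of complex III rose at day 1, against 35.3% of all genes tested. The largest rise was that of Uqcrfs1, the Rieske iron-sulfur protein that moves electrons toward cytochrome c1. Uqcrfs1 was at 53.4, 56.2, 54.8, 58.5 and 59.3 CPM at day 0, 85.2, 84.1, 78.5, 84.7 and 88.2 CPM at day 1, and 67.1, 65.9, 65.4, 68.2 and 73.5 CPM at day 12. The 3 groups did not overlap, and the log2 fold changes were 0.58 ± 0.04 and 0.27 ± 0.04 (adjusted p = 1.2e-12 and 5.4e-07). From day 1 to day 12 it fell by 0.31 on the log2 scale (adjusted p = 1e-07). The direction depended on scaling: the difference turned to a rise of 0.48 with the 4 reference genes and of 0.03 with Hprt and Tbp alone.

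Uqcrc2, a core protein of complex III that the study also blotted, rose by 0.32 ± 0.03 at day 1 and 0.14 ± 0.03 at day 12. Its counts are less certain, because 19.7% of its exon bases lie opposite Pdzd9 and the strand setting of the counting is not given in the sources used here. Cyc1, which encodes the heme protein cytochrome c1, rose from 60.4 ± 2.38 CPM to 75.6 ± 1.43 CPM at day 1 and was at 70.5 ± 2.46 CPM at day 12 (log2 fold changes 0.32 ± 0.03 and 0.22 ± 0.03). At day 12 the 7 genes of complex III that remained higher than at day 0 included Cyc1, Uqcrc1, Uqcrc2 and Uqcrfs1. The hinge protein gene Uqcrh and Uqcrb, a small ubiquinone-binding subunit with 3 near copies elsewhere in the genome, had log2 fold changes of -0.06 and 0.04 at day 12 (adjusted p = 0.082 and 0.33). By the test of day 12 against day 1, 7 of the 9 genes were lower and 1, Uqcrq, was higher. Of all genes tested, 32.8% were lower and 34.3% higher in this comparison.

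Cytochrome c, encoded by Cycs, carries electrons between complexes III and IV. Its gene was at 51.9, 50.8, 44.4, 54.5 and 55.2 CPM at day 0, 60.4, 64.4, 67.9, 61.3 and 64.2 CPM at day 1, and 72.5, 70.1, 76.0, 73.9 and 79.3 CPM at day 12. Each group lay wholly above the one before it. The log2 fold changes were 0.31 ± 0.05 and 0.53 ± 0.05 (adjusted p = 2.9e-06 and 2.6e-10), with a further rise of 0.22 ± 0.05 between them (adjusted p = 0.0002).

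Complex IV was the most divided. Leaving aside the tissue-restricted forms, all 10 of its subunit genes rose at day 1, by 0.10 to 0.46 on the log2 scale. At day 12 8 were higher, 1 was lower and 1 did not pass the test. Of all genes tested, 35.3% were higher at day 1, and 39.2% were higher and 37.4% lower at day 12. Cox5a, which sits on the matrix side of the complex, was at 44.4, 47.4, 47.4, 50.2 and 48.5 CPM at day 0, 67.7, 67.9, 60.6, 63.1 and 68.0 CPM at day 1, and 75.8, 73.8, 76.3, 74.8 and 77.1 CPM at day 12. The groups did not overlap and rose in order of exposure. By day 12 Cox5a had risen by 0.67 ± 0.04 on the log2 scale, or 1.59-fold (adjusted p = 2.1e-14), the largest rise among subunits of complex IV, although 12.8% of its exon bases lie opposite another annotated gene. Cox7b, a small membrane subunit, rose by 0.10 ± 0.04 at day 1 (adjusted p = 0.016) and by 0.39 ± 0.04 at day 12 (adjusted p = 1.1e-09). The day 1 value was 0.07 without day 0 replicate 3 and 0.08 without day 1 replicate 1, and did not pass in either case. It was 0.06 with a mean of at least 10 CPM required and 0.03 under scaling by Hprt and Tbp, where it did not pass either (adjusted p = 0.15 and 0.56). Its mean level was 76.9 ± 4.77 CPM at day 0, 82.6 ± 3.25 CPM at day 1 and 101 ± 2.71 CPM at day 12.

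Under TMM scaling Cox8a, a small subunit of the membrane part, and Cox7a2l, the supercomplex factor, went up and then down. The mean level of Cox8a was 196 ± 3.75 CPM at day 0, 215 ± 6.53 CPM at day 1 and 181 ± 8.02 CPM at day 12. Its log2 fold changes were 0.13 ± 0.03 and -0.12 ± 0.03 (adjusted p = 0.00043 and 0.00095), and those of Cox7a2l were 0.11 ± 0.03 and -0.08 ± 0.03 (adjusted p = 0.0011 and 0.011). The falls at day 12 are relative to the median of all genes, and with total counts the values were 0.07 and 0.11. Under scaling by Hprt and Tbp the day 1 values were 0.06 and 0.03 and did not pass (adjusted p = 0.28 and 0.51). Both genes were singled out after their values were seen.

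The tissue-restricted subunits went the other way. Of the 5 in this set, Cox6a2 and Cox8c had at most 8 and 6 counts in any library and were not tested. The other 3 fell at both days, while 36.2% and 37.4% of all genes tested fell at day 1 and day 12. Cox6b2, a form of subunit 6b best known from testis, was at 25.2, 26.4, 25.1, 25.2 and 25.6 CPM at day 0, 13.7, 13.5, 13, 13.7 and 12.6 CPM at day 1, and 2.84, 2.79, 2.13, 2.37 and 2.58 CPM at day 12. The groups were far apart with little spread within each. On the log2 scale it was lower by -0.94 ± 0.05 after 1 day and by -3.32 ± 0.06 after 12 days (adjusted p = 4.4e-14 and 2.7e-23), leaving a level 0.1 times that at 37°C. The gene lies at chr7:4751792-4753094 on the minus strand (GRCm38), and none of its exon bases are shared with another annotated gene.

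Cox6b1, the widely expressed form of the same subunit, moved in the opposite direction. It was at 135, 131, 124, 136 and 132 CPM at day 0, 167, 160, 160, 165 and 163 CPM at day 1, and 150, 164, 158, 155 and 159 CPM at day 12. The day 0 libraries lay below all others, with log2 fold changes of 0.31 ± 0.03 and 0.26 ± 0.03 (adjusted p = 8.2e-10 and 1.6e-08). The share of Cox6b2 in the reads of the pair, per base of transcript, was 17.8% ± 0.599 at day 0, 8.35% ± 0.253 at day 1 and 1.77% ± 0.216 at day 12. Such a share is formed within each library and does not depend on the scaling between libraries. Every pair of groups was separate (exact two-sided permutation test over libraries, n = 5 and 5, p = 0.00794, the smallest that 5 against 5 can give, adjusted p = 0.0119 over 21 tests of paralog shares).

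Cox4i1 and Cox4i2 encode alternative forms of the subunit through which ATP and ADP adjust complex IV, and Cox4i2 is best known from lung and from low oxygen. Cox4i2 was at 7.35, 7.89, 8.09, 7.88 and 8.19 CPM at day 0, 7.16, 6.12, 6.08, 6.44 and 5.48 CPM at day 1, and 3.35, 2.59, 2.68, 2.95 and 3.32 CPM at day 12. The 3 groups did not overlap, with log2 fold changes of -0.33 ± 0.08 and -1.40 ± 0.08 (adjusted p = 0.00056 and 1.6e-13). Cox4i1 was at 176, 175, 170, 182 and 176 CPM at day 0, 225, 232, 217, 218 and 222 CPM at day 1, and 250, 245, 237, 248 and 259 CPM at day 12. It rose by 0.34 ± 0.03 and 0.50 ± 0.03 and kept rising between the later days (0.16 ± 0.03, adjusted p = 2.8e-05). The share of Cox4i2 in the pair was 4.39% ± 0.217, 2.80% ± 0.269 and 1.21% ± 0.112, and the 3 groups were separate by the same exact permutation test (p = 0.00794, adjusted p = 0.0119).

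Cox7a1, the form found in heart and skeletal muscle and also in brown fat, was low throughout. It was at 1.36, 1.80, 2.00, 1.31 and 1.03 CPM at day 0, 0.807, 0.736, 0.381, 0.349 and 0.617 CPM at day 1, and 0.762, 0.593, 0.644, 0.998 and 0.662 CPM at day 12. Day 0 lay above both later groups, which overlapped, and the log2 fold changes were -1.38 ± 0.23 and -1.04 ± 0.23 (adjusted p = 1.2e-05 and 0.00022). With the 4 reference genes the day 12 value was -0.21 and did not pass, while relative to the median of all genes it lay between -1.06 and -1.05 under every scaling. Its counterpart Cox7a2 changed by 0.13 ± 0.04 and 0.11 ± 0.04 (adjusted p = 0.0059 and 0.014), of which the day 12 value was 0.08 and did not pass without day 0 replicate 3 or without day 12 replicate 5. The day 1 value of Cox7a2 was 0.09 with a mean of at least 10 CPM required and 0.06 under scaling by Hprt and Tbp, and did not pass in either case (adjusted p = 0.059 and 0.29). The share of Cox7a1 in the pair was 3.80% ± 1.16, 1.35% ± 0.456 and 1.74% ± 0.429, lower than at day 0 at both days (exact permutation test, p = 0.00794 and 0.0159, adjusted p = 0.0119 and 0.0222). Skeletal muscle markers were low, but their sum over 6 genes lay above Cox7a1 in every group. This sum was 2.95 to 3.80 CPM at day 0, 2.57 to 3.48 CPM at day 1 and 2.03 to 2.83 CPM at day 12. Its largest parts at day 0 were Myl1 (a mean of 1.70 CPM) and Tnnt3 (0.872 CPM), while the highest count of Ckm was 4. Of the 4 markers tested, 0 fell at day 1, and 2 were lower and 0 higher at day 12. Whether muscle-like cells had a part in the fall of Cox7a1 was not tested.

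**Figure D3:**
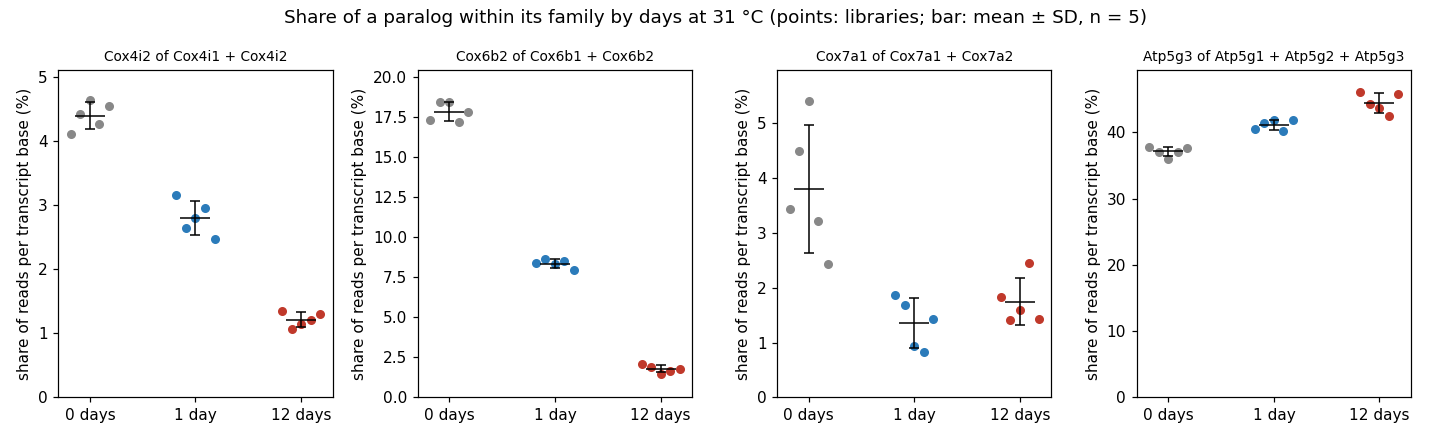
The share of Cox4i2, Cox6b2, Cox7a1 and Atp5g3 in the reads per transcript base of its own family (vertical axis, percent) is plotted by days at 31°C, with a point for each library and a bar for the mean ± SD (n = 5). Cox6b2 drops from 17.8% to 8.35% and 1.77%, while Atp5g3 climbs from 37.1% to 41.2% and 44.5%.

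Of the 7 genes for building complex IV, 3 rose, 1 fell and 3 did not pass the test at each day, so that the share that rose, 42.9%, was close to that of all genes (35.3% and 39.2%). Cox10, which makes the heme O precursor of the heme A in complex IV, rose by 0.51 ± 0.07 at day 1 and by 0.61 ± 0.07 at day 12 (adjusted p = 4.6e-07 and 1.8e-08), from a mean of 8.72 ± 0.364 CPM to 12.4 ± 1.30 and 13.3 ± 1.16 CPM. Cox17, the copper chaperone of the intermembrane space, was the one that fell. It was at 22.5, 19.7, 20.8, 21.6 and 22.4 CPM at day 0, 18, 17.3, 15.9, 17.8 and 17.1 CPM at day 1, and 14.2, 14.5, 14.5, 13.3 and 14.9 CPM at day 12. The groups stepped down without overlap, by -0.31 ± 0.05 and -0.59 ± 0.05 (adjusted p = 1.6e-06 and 3.7e-11). Under scaling by the 4 reference genes the day 12 value turned to 0.25, although it was -0.60 relative to the median of all genes under every scaling. Cox17 has 1 near copy in the annotation, so some of its reads are uncertain. The copper factors Cox11 and Cox19 and the heme A synthase gene Cox15 had log2 fold changes between -0.13 and 0.06 at either day, all with adjusted p of 0.16 or more.

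Of the 15 genes of complex V, 14 were higher at day 1 and 13 at day 12, against 35.3% and 39.2% of all genes tested. None of the 15 fell at either day, with 0 at an unadjusted p under 0.05 in edgeR and 0 in DESeq2. Atp5a1 and Atp5b encode the alpha and beta subunits of the catalytic head. Atp5a1 was at 513, 494, 502, 488 and 501 CPM at day 0, 612, 619, 599, 620 and 634 CPM at day 1, and 567, 560, 545, 547 and 568 CPM at day 12. Its level peaked at day 1, with log2 fold changes of 0.30 ± 0.02 and 0.16 ± 0.02 (adjusted p = 6.3e-11 and 2.6e-06). Atp5b, its partner in the same hexamer, instead climbed further, from 584 ± 12.6 to 710 ± 14.5 and 785 ± 13.3 CPM (0.28 ± 0.02 and 0.43 ± 0.02, adjusted p = 2.7e-10 and 7e-14).

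The difference between days 12 and 1 was -0.15 for Atp5a1 and 0.15 for Atp5b, each with an adjusted p = 1.2e-05. With total counts these were 0.03 and 0.32. Atp5b was singled out after its values were seen. Atp5c1, the gamma subunit that turns inside the head, rose by 0.09 ± 0.03 at day 1 and 0.28 ± 0.03 at day 12 (adjusted p = 0.0029 and 7.2e-10). Its day 1 value was 0.05 with a mean of at least 10 CPM required and 0.02 under scaling by Hprt and Tbp, and did not pass in either case (adjusted p = 0.083 and 0.68).

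Atp5l, subunit g of the membrane part, had the largest rise of complex V. It was at 105, 105, 96.9, 111 and 110 CPM at day 0, 164, 153, 156, 152 and 161 CPM at day 1, and 164, 168, 171, 173 and 172 CPM at day 12. All day 0 libraries were below 112 CPM and all others above 151 CPM. The log2 fold change was 0.58 ± 0.03 and 0.69 ± 0.03 (adjusted p = 9.8e-14 and 1.9e-15), but the gene has 9 near copies of at least 95% identity in the annotation, among which reads could be split.

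The 3 genes Atp5g1, Atp5g2 and Atp5g3 encode the same mature subunit c of the rotor ring, with different targeting peptides. At day 1 Atp5g1 rose by 0.56 ± 0.04, Atp5g3 by 0.49 ± 0.04 and Atp5g2 by 0.23 ± 0.03, and at day 12 the values were 0.49 ± 0.04, 0.56 ± 0.04 and 0.10 ± 0.03. All 6 passed the test (the highest adjusted p was 0.0011, for Atp5g2 at day 12). The share of Atp5g2 among the 3 fell from 60.4% ± 0.753 to 56.0% ± 0.753 and 52.7% ± 1.37 while that of Atp5g3 grew from 37.1% ± 0.730 to 41.2% ± 0.753 and 44.5% ± 1.51 (exact permutation test, p = 0.00794, adjusted p = 0.0119 for each pair of groups). The share of Atp5g1 was under 3.1% in every library, a figure that rests on the annotated transcript of 4660 bases, far longer than the 441 and 714 bases of the others. Atp5g2 has 2 near copies.

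**Figure D4:**
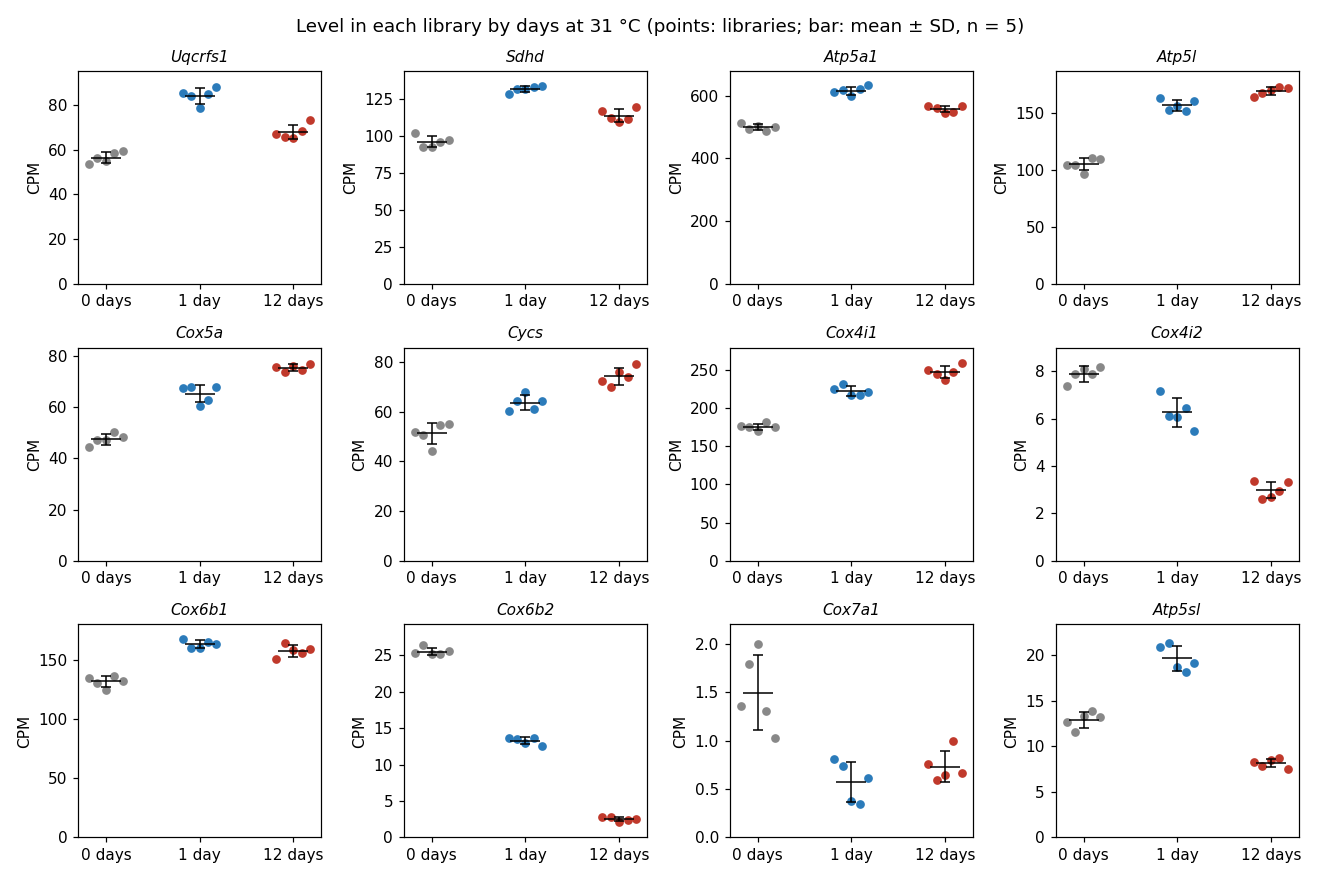
Levels (vertical axes, TMM-scaled CPM from 0) of 12 of the genes are plotted for each library by days at 31°C, with a bar for the mean ± SD (n = 5). With this scaling Uqcrfs1, Sdhd, Atp5a1 and Atp5sl peak at day 1. Cox5a, Cycs and Cox4i1 rise further by day 12, and Cox4i2 and Cox6b2 step down at each time.

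Read over all 3 comparisons, the genes followed several courses. Among the 53 tested, 11 rose at day 1 and rose again by day 12, among them Atp5b, Atp5c1, Atp5l, Cox4i1, Cox5a, Cox7b and Cycs. Another 11 rose at day 1 and fell back in part by day 12, among them Atp5a1, Atp5g2, Cox6a1, Cyc1, Sdhc, Sdhd, Uqcrc2 and Uqcrfs1. A further 13 rose and then did not differ by the test between days 1 and 12. The share of all genes that follow each course was not counted, so these numbers are descriptions only. In the direct comparison of day 12 with day 1, 11 genes were higher and 21 lower, against 34.3% and 32.8% of all genes, with a median log2 fold change of -0.04. No gene was higher by more than 1.5-fold in this comparison in edgeR, also at an unadjusted p under 0.05, or in DESeq2, and 3 were lower, Cox4i2, Cox6b2 and Atp5sl, against 10.6% and 8.53% of all genes. The split is relative to the median of all genes, and with total counts, where that median moved to 0.18, 32 were higher and 5 lower.

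The genes matched by name only held the largest rise, and besides Cox7a2l a second one, Atp5sl, was higher at day 1 and lower at day 12. Cox4nb rose by 0.80 ± 0.03 at day 1 and 0.90 ± 0.03 at day 12 (adjusted p = 7.4e-16 and 3.5e-17), the largest rise of the 53 at both days. It was at 24.3, 25.5, 23.0, 24.7 and 23.7 CPM at day 0, 42.4, 40.6, 43.2, 44.1 and 41.1 CPM at day 1, and 46.9, 45.5, 44.4, 43.6 and 45.8 CPM at day 12. Its gene and Cox4i1 lie head to head on chromosome 8, at chr8:120653914-120668573 on the minus strand and chr8:120668222-120674207 on the plus strand, and their first exons overlap over 9.94% of the exon bases of Cox4i1.

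Atp5sl was at 12.7, 11.6, 13.3, 13.9 and 13.2 CPM at day 0, 20.9, 21.4, 18.7, 18.2 and 19.2 CPM at day 1, and 8.32, 7.88, 8.46, 8.67 and 7.52 CPM at day 12. It rose at day 1 (0.60 ± 0.06, adjusted p = 9.9e-10) and was below its starting level at day 12 (-0.66 ± 0.06, adjusted p = 2.9e-10), with no overlap between any groups. Atp5s fell by 0.61 on the log2 scale at day 1 and by 0.60 at day 12 (adjusted p = 9.3e-10 and 9.1e-10). With the 4 reference genes the day 12 values of Atp5sl and Atp5s became 0.17 and 0.24, and relative to all genes they stayed between -0.68 and -0.61.

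Assembly factors and regulators of complexes II to V other than the Cox10 to Cox19 genes were taken as a list of 34 genes, of which 33 were tested. At day 1 13 rose and 8 fell, and at day 12 11 rose and 10 fell, with median log2 fold changes of -0.02 and -0.04. These shares, 39.4% and 33.3% for the rises, stood near those of all genes tested (35.3% and 39.2%), and for the falls the shares of all genes were 36.2% and 37.4%. Rises of more than 1.5-fold were those of Sdhaf1, which inserts iron-sulfur clusters into complex II (0.64), and Atpaf2, a chaperone of the alpha subunit (0.69), at day 1, and those of Fastkd3, a protein of mitochondrial RNA (0.66), and Atpif1, the inhibitor of ATP hydrolysis by complex V (0.60), at day 12. Falls of that size at both days were those of Bcs1l, which inserts the Rieske protein into complex III (-1.24 and -0.78), Lyrm7, its chaperone (-0.90 and -1), and Coa4 (-1.12 and -1.18). Bcs1l was at 15.8 CPM on average at day 0, 6.69 CPM at day 1 and 9.23 CPM at day 12, while Uqcrfs1, the protein it inserts, rose as described above. Oma1, an inner membrane protease, fell by that much at day 1 (-0.86), and Higd1a, a small factor of complex IV (-1.06), and Coa3 (-0.59) at day 12. With the 4 reference genes the day 12 values of Bcs1l and Coa3 were 0.07 and 0.25 and that of Lyrm7 was -0.16, with those of Bcs1l and Lyrm7 not passing (adjusted p = 0.37 and 0.14), and relative to all genes they were -0.78, -0.60 and -1.01. Ppargc1a, the coactivator best known for raising respiratory gene expression, was low and fell, from 3.31 ± 0.275 CPM to 2.39 ± 0.244 CPM at day 1 and 1.17 ± 0.412 CPM at day 12 (log2 fold changes -0.47 ± 0.15 and -1.50 ± 0.16, adjusted p = 0.0076 and 8.9e-09).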

How the data were processed

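RNA from 15 cultures of mouse adipocytes (3 groups of 5 libraries) was sequenced. Per the labels, the authors checked reads with FastQC, aligned them to mm10 with TopHat2 2.0.13 and Bowtie2 2.2.1 and counted them per gene with HTSeq. The deposited values used here were these raw counts. The deposited regularized log values and the authors' own DESeq2 tables of fold changes and p-values were not used. The strand setting and the treatment of reads that map to several places are not given in the sources used here, so genes with over 10% of exon bases shared with another gene (7 of 55) or with near copies of at least 95% identity (9 of 55) are less certain.

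Genes were filtered with filterByExpr (minimum count 10), scaled by TMM and tested in edgeR 4.0.16 (R 4.3.3; quasi-likelihood). A single fit held the 15 libraries and no covariate, with Benjamini-Hochberg adjustment over 14293 genes. A rise or fall means an adjusted p under 0.05, and the limit of 1.5-fold used by the authors was counted apart. CPM are TMM-scaled. Coordinates came from GENCODE for GRCm38, the build of mm10, and promoters from RefSeq. Shares of paralogs used 1 representative transcript per gene and exact permutation tests. On simulated counts the fit recovered 89.3% of 197 changed genes in the comparison of day 12 with day 0.

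Named were the Sdh genes, Uqcrc2, Atp5a1, Cyc1, Cycs, the paralog families, the 5 largest rises and falls of each comparison among genes that passed, and genes below the filter. Others named here (Atp5b, Cox8a, Cox7a2l, Uqcrb, Uqcrc1, Uqcrh, Uqcrq, Cox11, Cox15, Cox19 and Ppargc1a) were chosen after their values were seen. The genes, lists and groupings were chosen with earlier results of these data known.

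Alternatives were other scalings (DESeq2 size factors, total counts, 4 reference genes), no filter, a mean of at least 10 CPM, DESeq2 1.42.0, a replicate block, the sample-number series in the library titles as a covariate or only its larger part (11 libraries), and leaving out each library. Scaling by Hprt and Tbp, and all alternatives for sums and shares, were added after seeing the data. Samples with the same replicate number deviated together only weakly, if at all (correlations between -0.03 and 0.04 across genes). No pairing was therefore assumed in the main fit.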

Additional observations from a re-analysis of the deposited data

Results flagged for a closer look

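The effects of 1 day and 12 days at 31°C differed for Atp5sl, Cox4i2 and Cox6b2, by the test of day 12 against day 1. The log2 difference was -1.27 for Atp5sl (adjusted p = 2.8e-15, edgeR), -1.06 for Cox4i2 (adjusted p = 7.6e-11) and -2.38 for Cox6b2 (adjusted p = 4.7e-20), and in each the 5 day 12 libraries lay below the 5 day 1 libraries.

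Cyc1 had 1 day 0 library, replicate 2, that lay apart from the other 4, at 56.3 CPM against 60.6 to 62.3 CPM. It was the only such library among 84 groups of 5 examined, and chance alone gives about 1 in 20.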

How the results depend on the processing

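Scaling between libraries moved the most results, and the filter at 10 CPM some. The median of all genes was 0.21 at day 12 against day 0 and 0.18 at day 12 against day 1 when libraries were scaled by total counts, 0.85 and 0.80 under scaling by the 4 reference genes, all 4 of which were lower at day 12 (Hprt by -0.25, Tbp by -0.27, Gapdh by -0.70 and B2m by -2.12), and 0.27 and 0.34 with Hprt and Tbp alone. Relative to these medians, all 28 tested genes of the naming rule kept their direction in the 3 comparisons under all 4 other scalings. With total counts, 4 genes were higher by over 1.5-fold at day 1, and at day 12 16 were higher and 3 lower by that much with a median of 0.37. Against day 1, 32 were higher and 5 lower with a median of 0.13. With the 4 reference genes, day 1 gave 6 higher by over 1.5-fold and a median of 0.32, and day 12 gave 2 lower in all, 47 higher and 1 lower by over 1.5-fold and a median of 1.02. Against day 1 this scaling gave 50 higher and 3 lower, 45 and 1 of them by over 1.5-fold, with a median of 0.75. With Hprt and Tbp, day 1 gave 32 higher, against 43 in the main fit, 1 higher by over 1.5-fold and a median of 0.20. Day 12 then gave 19 higher and 3 lower by over 1.5-fold and a median of 0.44. Day 12 against day 1 gave 47 higher, 3 lower, 2 higher by over 1.5-fold and a median of 0.29. Summed levels at days 0, 1 and 12 were 4656, 5695 and 6297 CPM with total counts, 3985, 4974 and 8437 CPM with the 4 reference genes and 4685, 5371 and 6646 CPM with Hprt and Tbp, against 4891, 5898 and 5787 CPM.

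Single genes that changed direction did so mostly between days 12 and 1, by less than the shift of all genes. With total counts, the log2 differences were 0.027 for Atp5a1, 0.10 for Atp5g1, 0.040 for Atp5g2, 0.063 for Cox6a1, 0.12 for Cox6b1, 0.16 for Cox7a2, 0.070 for Cyc1, 0.13 for Sdha, 0.14 for Sdhb and 0.010 for Sdhc. With the 4 reference genes they were 0.64, 0.72, 0.66, 0.68, 0.74, 0.77, 0.69, 0.75, 0.76 and 0.63 in the same order, and 0.52 for Cox17, 0.58 for Sdhd, 0.61 for Uqcrc2 and 0.48 for Uqcrfs1. With Hprt and Tbp all 14 were 0.19, 0.26, 0.20, 0.23, 0.28, 0.32, 0.23, 0.29, 0.30, 0.17, 0.063, 0.12, 0.16 and 0.027. Against day 0, Sdha at day 12 was 0.18, 0.83 and 0.25 under the 3 scalings, and -0.042 at day 1 with Hprt and Tbp. Atp5s, Atp5sl and Cox17 at day 12 were 0.24, 0.17 and 0.25 with the 4 reference genes.

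A mean of at least 10 CPM left fewer genes to test, with 2 lower at day 1, 1 higher and 1 lower by over 1.5-fold, and 3 lower by over 1.5-fold at day 12, while Sdha at day 1 was -0.015 and Cox7a2 at day 12 against day 1 was 0.0091. The day 1 values of Atp5c1, Cox7a2 and Cox7b were then 0.048, 0.086 and 0.058 and no longer passed, as with Hprt and Tbp (0.020, 0.059 and 0.031). DESeq2 size factors, no filter, the DESeq2 test and the sample-number series, as a covariate or alone, kept the counts within 1.5 times and the medians within the spread between libraries. With the replicate block, 43 genes were higher and 5 lower at day 1, 36 and 9 at day 12, and 11 and 22 at day 12 against day 1. The labels do not say that the numbers pair the samples. Of the 15 libraries, 10 correlated best with one of their own number, a count that was not compared with chance. All correlations between libraries of the same number were weak, and 0% of them were over 0.1.

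Leaving out each library in turn, the genes higher by over 1.5-fold at day 1 numbered 1 to 5, Atp5s at day 12 against day 1 ranged from -0.024 to 0.041, and the share of Atp5g1 changed by 0.32 to 0.44 percentage points at day 12 against day 0 and by -0.085 to 0.031 against day 1. The share of Cox6a2, from 8 counts or fewer, changed by -0.010 to 0.0023 points at day 1, by -0.022 to -0.010 at day 12 and by -0.016 to -0.0080 at day 12 against day 1. Depth limited only Cox6a2 and Cox8c, where 3 counts stand for up to 0.0428 CPM.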
